A study of Homo sapiens with 24 samples.

Results

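SPOP, its paralog SPOPL, the cullin scaffolds CUL1, CUL2, CUL3, CUL4A, CUL4B and CUL5, the RING protein RBX1 and the adaptor KEAP1 were followed by microarray in HEK293T cells, a human embryonic kidney line that carries the SV40 large T antigen. These 10 genes, of 18417 genes measured, were found by gene symbol. Each was read by 1 probe set that carried no other symbol. The set was chosen on earlier results of the same arrays, in which SPOPL was among the genes higher after FMR4 siRNA at both times. The values of SPOPL on the siRNA arrays are therefore given as a description, with no test. The other 9 genes were added as its paralog and partners.

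The cells were transfected with FMR4 siRNA, which targets FMR4, a long noncoding RNA transcribed from the FMR1 locus, or with CTRL siRNA, both at 40 nM with Lipofectamine RNAiMAX. Other cells received 0.5 µg of FMR4 pcDNA3.1, a plasmid that overexpresses FMR4, or the empty vector, CTRL pcDNA3.1, with Lipofectamine 2000CD. RNA was taken at 6 or 24 h, on 3 arrays per condition and 24 arrays over 8 conditions, each from 3 pooled technical replicates. FMR4 siRNA was 1 siRNA design, the siRNA and plasmid arms differed in nucleic acid and in reagent, and no untransfected cells were arrayed. The level of FMR4 itself was not analysed here. The array medians lay between 7.43 and 7.53 log2 units and no 2 arrays were identical. FMR4 siRNA 6 h replicate 3 stood farthest from its group, at a root mean square distance of 0.183 against 0.07 to 0.144 on the other arrays. Of the 9 HEK293 markers measured, 6 were above background, among them VIM, INA and CDH2, while PAX2, LHX1 and SALL4 were not. Of 11 markers of other cell types, 0 were above background. Background was taken as 7.72 log2 units, the 95th percentile of the mean levels of 429 olfactory receptor and keratin-associated protein genes, and 56.3% of all genes lay above it.

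Cullin-RING ligases attach ubiquitin to proteins and so mark many of them for breakdown by the proteasome. A cullin is the scaffold: one end binds a RING protein, usually RBX1, that recruits the charged ubiquitin-conjugating enzyme, and the other end binds an adaptor that picks the substrate. CUL3 uses adaptors with a BTB domain, among them SPOP, SPOPL and KEAP1. CUL1 uses SKP1 with F-box proteins, CUL2 and CUL5 use elongins with VHL-box or SOCS-box proteins, and CUL4A and CUL4B use DDB1 with DCAF proteins. SPOP and SPOPL can form mixed oligomers, and KEAP1 directs CUL3 to NFE2L2, the main transcription factor of the antioxidant response.

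All 10 genes had mean levels above background. SPOPL lay nearest to it, at 8.3 log2 units over the 24 arrays, and 1 of its condition means, 7.73 in CTRL siRNA at 24 h, was at the background level. Array signals near background compress differences. Over the 8 conditions the means of SPOPL spanned 1.08 log2 units, and only 0.478% of genes had a larger span. The span ran from CTRL siRNA to FMR4 siRNA at 24 h. SPOPL was chosen on that difference, so the span and its rank are a description. The means of the other 9 genes spanned 0.14 (CUL1) to 0.31 (CUL2) log2 units. CUL1, KEAP1 and SPOP were among the flatter genes on the array, since 89.1%, 86.6% and 80.4% of genes had a larger span than they did.

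**Figure D1:**
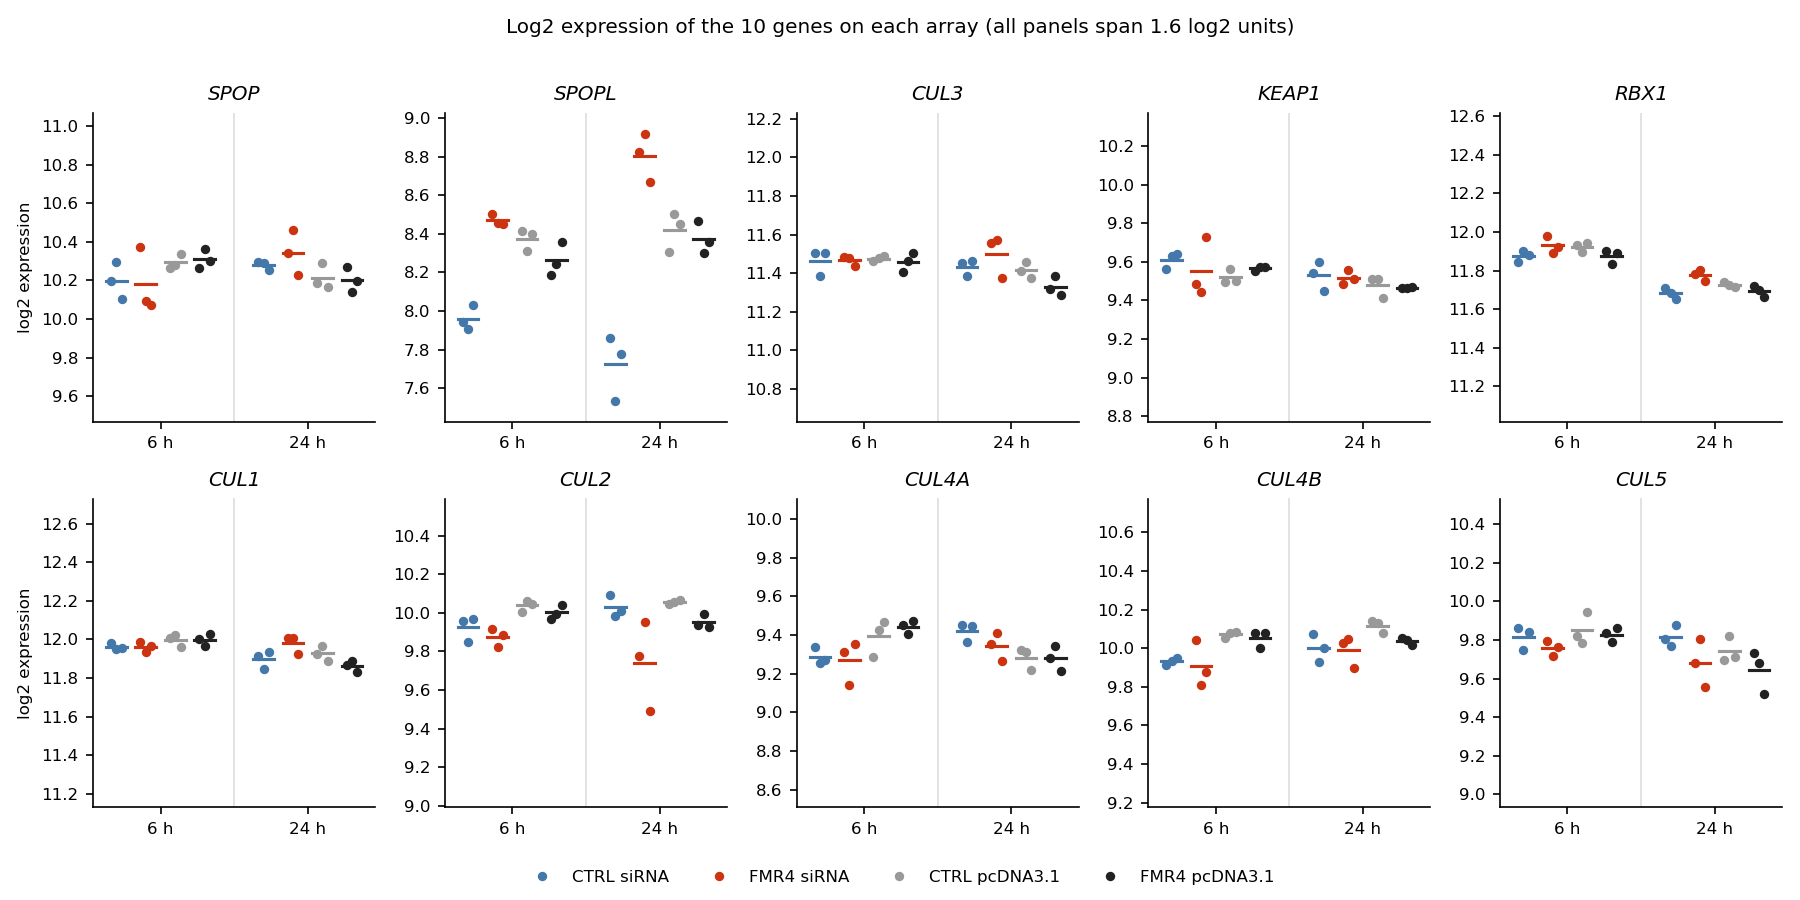
Log2 expression (vertical axes, each spanning 1.6 log2 units) of the 10 genes on each of the 24 arrays at 6 and 24 h; points are arrays, bars are the means of the 3 arrays of a condition, and colours are the treatments. SPOPL separates CTRL siRNA from FMR4 siRNA at both times, and RBX1 lies lower at 24 h in every treatment. CUL2 has its lowest mean in FMR4 siRNA at 24 h, and the other panels vary less.

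SPOPL shares the substrate-binding MATH domain and the BTB domain of SPOP. It was the member whose levels varied most, a description, since it was chosen for its difference between the siRNAs. In the CTRL siRNA cells its levels were 7.94, 7.91 and 8.03 log2 units at 6 h and 7.86, 7.54 and 7.78 at 24 h. In the FMR4 siRNA cells they were 8.50, 8.46 and 8.45 at 6 h and 8.82, 8.92 and 8.67 at 24 h. No FMR4 siRNA array overlapped the CTRL siRNA arrays at either time. The difference was 0.51 log2 units (SE 0.079, 1.43-fold) at 6 h and 1.08 (SE 0.079, 2.11-fold) at 24 h. The 24 h difference was the fifth largest positive difference among the 18417 genes, after EMP2, SAR1B, IL6ST and SCAMP1, with EDIL3 (0.99) next below it. The 6 h difference was 0.52 without FMR4 siRNA 6 h replicate 3, the array that stood apart.

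The plasmid arrays gave a second reference for SPOPL. Its levels were 8.41, 8.31 and 8.40 in CTRL pcDNA3.1 and 8.19, 8.24 and 8.36 in FMR4 pcDNA3.1 at 6 h. At 24 h they were 8.30, 8.50 and 8.45 in CTRL pcDNA3.1 and 8.47, 8.30 and 8.36 in FMR4 pcDNA3.1. The 12 plasmid arrays thus lay between the siRNA groups, overlapping only the 6 h FMR4 siRNA arrays. Against the mean of the plasmid groups at 24 h, SPOPL was lower by 0.67 log2 units (1.59-fold) in CTRL siRNA cells and higher by 0.40 (1.32-fold) in FMR4 siRNA cells. At 6 h the same differences were -0.36 and 0.15. More of the gap between the siRNA groups therefore lay, at both times, on the CTRL siRNA side of the plasmid level. A change from FMR4 siRNA and a change from CTRL siRNA cannot be told apart with these groups, because the plasmid cells also differed in reagent.

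In descending order of its means SPOPL ran from FMR4 siRNA 24 h (8.80) through FMR4 siRNA 6 h (8.47), CTRL pcDNA3.1 24 h (8.42), FMR4 pcDNA3.1 24 h (8.38), CTRL pcDNA3.1 6 h (8.37), FMR4 pcDNA3.1 6 h (8.26) and CTRL siRNA 6 h (7.96) to CTRL siRNA 24 h (7.73). Only 3 of the 7 neighbouring pairs had separate arrays: the first, the last and FMR4 pcDNA3.1 6 h above CTRL siRNA 6 h. The 4 pairs among FMR4 siRNA 6 h and the plasmid groups overlapped, with gaps of up to 0.11 against a pooled SD of 0.10.

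FMR4 overexpression, the arm that played no part in choosing SPOPL, gave no detectable change in it. FMR4 pcDNA3.1 minus CTRL pcDNA3.1 was -0.11 log2 units at 6 h (95% interval -0.28 to 0.05) and -0.04 at 24 h (95% interval -0.21 to 0.12), with limma adjusted p = 1 and 0.999. The intervals exclude a rise or a fall as large as the siRNA difference at either time. The overexpression effect at 24 h differed from that at 6 h by 0.07 (SE 0.112, limma adjusted p = 1). Over both plasmids SPOPL was 0.08 higher at 24 h than at 6 h, which did not pass the test (limma adjusted p = 0.364).

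SPOP, the paralog and a substrate adaptor of CUL3 that is recurrently mutated in prostate and endometrial cancers, gave no difference past the test in any of the 12 comparisons. Its levels at 24 h ran from 10.25 to 10.29 in CTRL siRNA cells and from 10.23 to 10.46 in FMR4 siRNA cells, which overlapped. FMR4 siRNA minus CTRL siRNA was 0.06 log2 units at 24 h (95% interval -0.09 to 0.22, limma adjusted p = 0.778) and -0.02 at 6 h (95% interval -0.17 to 0.14). In FMR4 siRNA cells SPOP was 0.16 higher at 24 h than at 6 h (limma adjusted p = 0.141), and this passed without FMR4 siRNA 6 h replicate 1, where SPOP was 10.37 against 10.09 and 10.07 on the other arrays (0.26, limma adjusted p = 0.00867).

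KEAP1 also gave no difference past the test in any comparison. Its condition means ran from 9.47 in FMR4 pcDNA3.1 at 24 h to 9.61 in CTRL siRNA at 6 h. The 24 h difference of FMR4 siRNA and CTRL siRNA was -0.01 log2 units (95% interval -0.14 to 0.12). At 6 h it was -0.06 with every array and -0.15 without FMR4 siRNA 6 h replicate 3, where KEAP1 was 9.73 against 9.48 and 9.44 on the other arrays (limma adjusted p = 0.137).

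CUL3, the scaffold that SPOP, SPOPL and KEAP1 share, was near level as well. Its arrays at 24 h ran from 11.39 to 11.46 in CTRL siRNA cells and from 11.38 to 11.57 in FMR4 siRNA cells, and the difference was 0.07 log2 units (95% interval -0.05 to 0.18, limma adjusted p = 0.652). Against the plasmid groups at 24 h CUL3 was 0.13 higher in FMR4 siRNA cells, which did not pass the test (limma adjusted p = 0.0895). That difference passed under 5 of 17 other settings, among them median centring (limma adjusted p = 0.0233) and the omission of FMR4 siRNA 24 h replicate 3 (0.0157).

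CUL2, the scaffold of the von Hippel-Lindau ligase, was the 1 tested member that passed between FMR4 siRNA and CTRL siRNA. At 24 h its levels were 10.09, 9.98 and 10.01 log2 units in CTRL siRNA cells and 9.78, 9.95 and 9.49 in FMR4 siRNA cells. The groups did not overlap, but the FMR4 siRNA arrays spread widely (SD 0.23, n = 3) and the highest of them lay just under the lowest CTRL siRNA array. CUL2 fell by 0.29 log2 units (SE 0.075, 1.22-fold lower, limma adjusted p = 0.0231). In this comparison 5.88% of all genes passed the test, and 9.39% of the genes above background, where all 10 members lay. The difference was -0.16 without FMR4 siRNA 24 h replicate 3 and did not pass (limma adjusted p = 0.138). The call was also lost, at differences about as large as with every array, without CTRL siRNA 24 h replicate 1 (-0.26, limma adjusted p = 0.108) or replicate 3 (-0.30, 0.055) and in a fit to the 24 h arrays alone (-0.29, 0.0653). The effect at 24 h minus that at 6 h was -0.24 (limma adjusted p = 0.412), a difference between times that did not pass the test.

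The other scaffolds and RBX1 gave no difference past the test between FMR4 siRNA and CTRL siRNA. At 24 h the differences were 0.08 for CUL1, -0.08 for CUL4A, -0.01 for CUL4B, -0.14 for CUL5 and 0.09 for RBX1. The RBX1 arrays did not overlap, at 11.75 to 11.80 in FMR4 siRNA cells against 11.65 to 11.71 in CTRL siRNA cells, but the adjusted p was 0.314 in limma. Over the 9 genes other than SPOPL the median difference was -0.01 at 24 h and -0.02 at 6 h, beside 0.004 and -0.021 over all genes. At 6 h, where 0.0597% of all genes passed, 0 of the 9 passed the limma test and 0 had an unadjusted p under 0.05. Of the difference between the times, which 1.18% of all genes passed, 0 of these 9 passed and 1, CUL2, had an unadjusted p under 0.05.

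FMR4 overexpression moved none of the 10 genes past the test at either time. The share of all genes that passed in limma was 0% at 6 h, 0% at 24 h and 0% for the difference between the times, and 0 of the 10 members had an unadjusted p under 0.05 in any of the 3 comparisons. Over all genes 373, 602 and 341 had an unadjusted p under 0.05. At 24 h, 9 of the 10 differences lay between -0.10 and -0.01 and CUL4A was at 0 in the second decimal. Over all genes the median was -0.026 at 24 h, and the 5th and 95th percentiles were -0.15 and 0.10. The largest interval bounds at 24 h were -0.26 for CUL2 and 0.14 for SPOP.

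**Figure D2:**
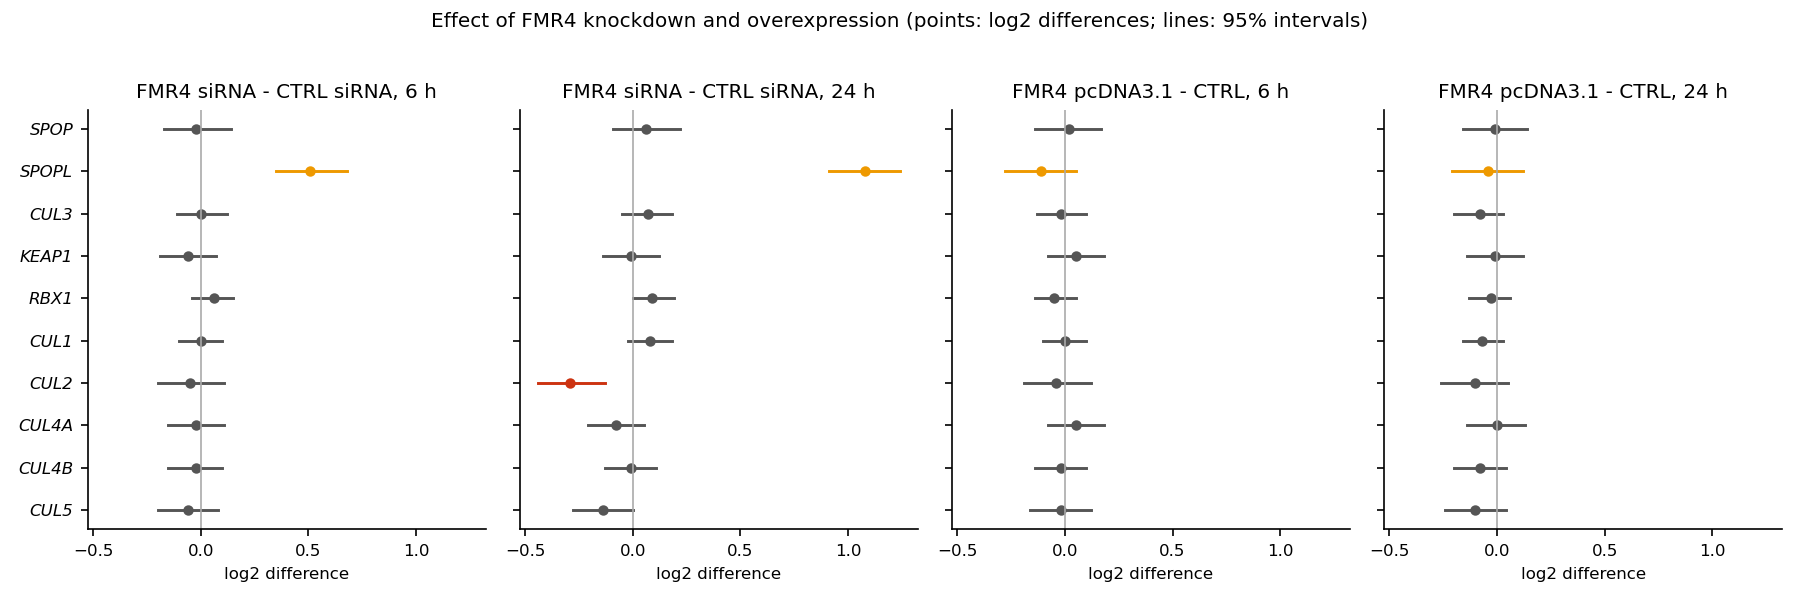
Log2 difference (horizontal axes) of FMR4 siRNA minus CTRL siRNA and of FMR4 pcDNA3.1 minus CTRL pcDNA3.1 at 6 and 24 h for the 10 genes; points are differences of 3 arrays against 3 and lines are 95% intervals. SPOPL (orange, not tested on the siRNA arrays) lies at 0.51 and 1.08 with siRNA and near 0 with plasmid, and CUL2 (red, past the test) lies at -0.29 at 24 h.

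Between the siRNA and plasmid arms, up to 2 of the 9 genes other than SPOPL passed in a comparison. At 24 h CTRL siRNA minus the plasmid groups passed for 0 of the 9 genes other than SPOPL, where 6.9% of all genes passed and 2 of the 9 had an unadjusted p under 0.05. For FMR4 siRNA minus the plasmid groups at 24 h, 12.4% of all genes passed, and 18.1% of those above background. Of the 9, 4 had an unadjusted p under 0.05 and 1 passed the test. That 1 was CUL2, which was lower by 0.26 log2 units (SE 0.065, limma adjusted p = 0.00912) and, without FMR4 siRNA 24 h replicate 3, by 0.14 (limma adjusted p = 0.11). This comparison holds the same FMR4 siRNA arrays as the one with CTRL siRNA and is not independent of it. At 6 h 19.2% of all genes passed, and 26.5% of those above background. CUL4A and CUL4B, the paralogous scaffolds of the DDB1 ligases, were each lower at 6 h by 0.14 log2 units in the siRNA groups (SE 0.045 and 0.042, limma adjusted p = 0.0341 and 0.0209). Neither passed when only the 12 arrays of that time were fitted (limma adjusted p = 0.092 and 0.0706). Both were also lost without FMR4 siRNA 6 h replicate 2 (0.0905 and 0.0532) or FMR4 pcDNA3.1 6 h replicate 3 (0.0767 and 0.0508). CUL4A was lost without any 1 of 5 further arrays as well, at an adjusted p of up to 0.0953. An unadjusted p under 0.05 was reached by 4 of the 9 at 6 h, and with array weights SPOP (-0.13, limma adjusted p = 0.0337) and CUL2 (-0.13, 0.0378) passed too.

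RBX1 was the member that changed most steadily with time after transfection. Its levels on the 12 arrays of 6 h ran from 11.83 to 11.98 log2 units with a median of 11.90. On the 12 arrays of 24 h they ran from 11.65 to 11.80 with a median of 11.72, so every 24 h array lay below every 6 h array. RBX1 fell by 0.19 log2 units in CTRL siRNA cells (SE 0.045, 1.14-fold lower, limma adjusted p = 0.00499), by 0.15 in FMR4 siRNA cells (SE 0.045, limma adjusted p = 0.0222) and by 0.19 in the plasmid groups (SE 0.032, limma adjusted p = 0.000245). In these comparisons 18.5%, 16.7% and 18.2% of all genes passed, and 27.4%, 25.2% and 24.2% of those above background. The fall held under all alternatives run in CTRL siRNA cells and in the plasmid groups. In FMR4 siRNA cells it did not pass without FMR4 siRNA 6 h replicate 1 (limma adjusted p = 0.0636) or FMR4 siRNA 24 h replicate 3 (0.0609), nor with array weights (0.0611), at values of 0.13 to 0.18 lower over all alternatives. Time after transfection and time in culture cannot be told apart.

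In the plasmid groups 3 scaffolds fell with time as well, each by a little. CUL1, the scaffold of the SKP1 and F-box ligases, fell by 0.10 log2 units (SE 0.033, limma adjusted p = 0.0311), CUL4A by 0.14 (SE 0.045, limma adjusted p = 0.0367) and CUL5, the scaffold of the SOCS-box ligases, by 0.15 (SE 0.048, limma adjusted p = 0.0368). The 6 h and 24 h arrays overlapped for all 3, and each lost its call without any 1 of 7 or 8 of the 12 plasmid arrays, at adjusted p-values of up to 0.124. CUL1 also lost its call with quantile normalisation (limma adjusted p = 0.0824). In CTRL siRNA cells CUL4A went the other way, by 0.13 (limma adjusted p = 0.159, not past the test). As a description, SPOPL was 0.23 lower at 24 h than at 6 h in CTRL siRNA cells, or 0.14 lower without CTRL siRNA 24 h replicate 2, and 0.33 higher in FMR4 siRNA cells.

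**Figure D3:**
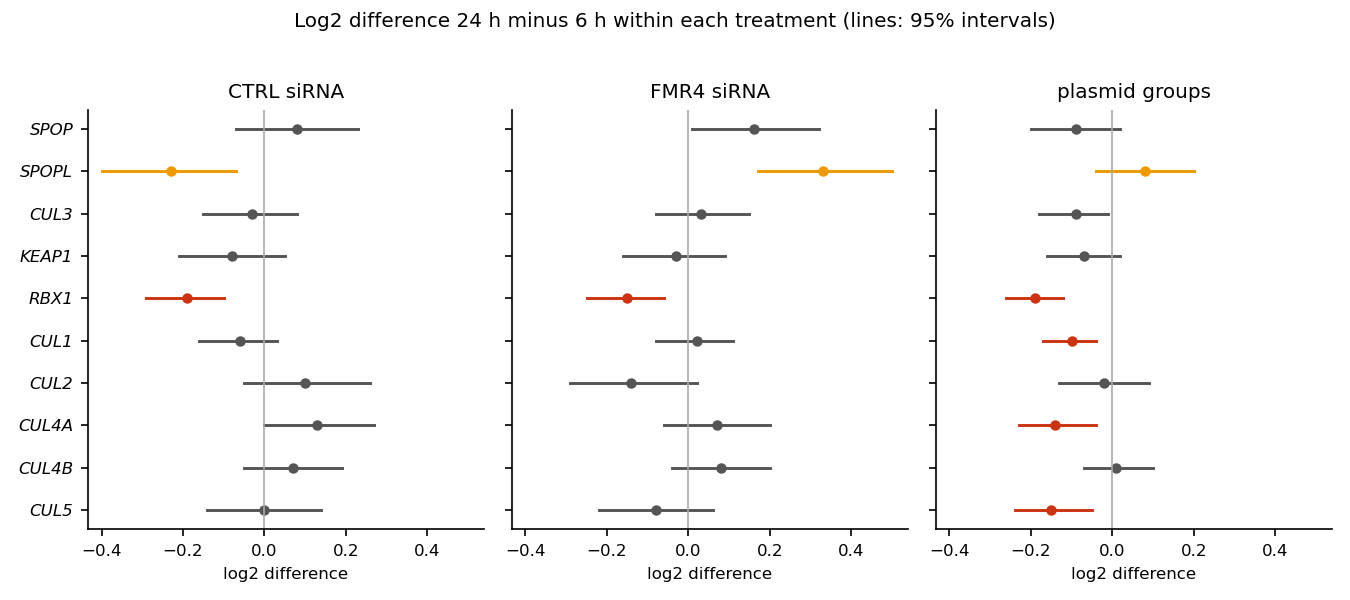
Log2 difference of 24 h minus 6 h (horizontal axes) for the 10 genes in CTRL siRNA cells, FMR4 siRNA cells and the plasmid groups together; points are differences and lines 95% intervals, with genes past the test in red and SPOPL in orange. RBX1 lies between -0.19 and -0.15 in all 3 panels, and CUL1, CUL4A and CUL5 pass only in the plasmid groups, a contrast between panels that was not tested.

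Around the 10 genes, 246 of 266 listed partners, regulators and substrates were measured, in 8 lists. With FMR4 siRNA at 24 h, 28 of the 246 passed, 17 higher and 11 lower. Of the 246, 91.9% were above background. In this comparison 5.88% of all genes passed, and 9.39% of the 10373 genes above background.

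The BTB adaptors of CUL3, the family to which SPOPL belongs, had 11 of 44 measured genes past the test (25%), 8 higher and 3 lower, with a median of 0.07 log2 units. Of the 41 above background, 10 passed (24.4%). KLHL2, which directs CUL3 to WNK kinases, rose by 0.79 (SE 0.115, limma adjusted p = 7.66e-05). Its levels were 6.98 to 7.43 in CTRL siRNA cells, under background, and 7.87 to 8.16 in FMR4 siRNA cells, so that its fold is uncertain. BTBD3, which takes part in dendrite orientation in neurons, rose by 0.34 (SE 0.054, limma adjusted p = 0.000227) and KLHL11 by 0.29 (SE 0.055, limma adjusted p = 0.00172). KLHL12, an adaptor for the COPII coat protein SEC31, fell by 0.63 (SE 0.091, limma adjusted p = 6.54e-05). BTBD1 fell by 0.59 (SE 0.053, limma adjusted p = 1.18e-07), from 11.10 to 11.12 in CTRL siRNA cells to 10.43 to 10.62 in FMR4 siRNA cells. KLHL5 fell by 0.32 (SE 0.073, limma adjusted p = 0.00705), a call lost without FMR4 siRNA 24 h replicate 3 (limma adjusted p = 0.0546). Across the alternatives run, between 8 and 12 of the 44 passed.

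The BTB adaptors that passed did so from different sides of the plasmid level. KLHL2 was 0.65 lower in CTRL siRNA cells than in the plasmid groups at 24 h (limma adjusted p = 0.000209) and 0.15 higher in FMR4 siRNA cells (0.401). BTBD1 was 0.07 lower in CTRL siRNA cells (0.475) and 0.66 lower in FMR4 siRNA cells (3.04e-09). KLHL11 was near level in CTRL siRNA cells, at -0.03 (0.787), and 0.26 higher in FMR4 siRNA cells (0.000898). These comparisons share arrays with each other and with the one between the siRNAs. With FMR4 pcDNA3.1 the 28 genes gave 0 calls at either time in limma, where 0% of all genes passed.

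DDB1 and the adaptors of CUL4 had 5 of 33 past the test (15.2%), 2 higher and 3 lower, with a median of 0.05. Of the 32 above background 15.6% passed, beside 9.39% of all genes above background. CRBN, the target of thalidomide and its analogs, rose by 0.35 (SE 0.068, limma adjusted p = 0.002), and BRWD3 rose by 0.36 (SE 0.081, limma adjusted p = 0.00766). DCAF12 fell by 0.62 (SE 0.061, limma adjusted p = 4.26e-07), RBBP5, also a subunit of histone methyltransferase complexes, by 0.35 (SE 0.077, limma adjusted p = 0.00645) and DCAF1, which the HIV protein Vpr binds, by 0.23 (SE 0.068, limma adjusted p = 0.047). DCAF12 was 0.32 higher in CTRL siRNA cells than in the plasmid groups (limma adjusted p = 0.000415) and 0.30 lower in FMR4 siRNA cells (0.000555). The call of BRWD3 was lost without CTRL siRNA 24 h replicate 2 (limma adjusted p = 0.0606), and that of DCAF1 without any 1 of 4 arrays (up to 0.228).

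SKP1 and the F-box adaptors of CUL1 had 3 of 45 past the test (6.67%), 1 higher and 2 lower. Of the 43 above background 6.98% passed, under the 9.39% of all genes above background. SKP2, which targets the cell cycle inhibitor CDKN1B, fell by 0.47 (SE 0.05, limma adjusted p = 1.3e-06), from 12.33 to 12.35 in CTRL siRNA cells to 11.81 to 11.95 in FMR4 siRNA cells. In CTRL siRNA cells SKP2 was at the plasmid level (-0.01, limma adjusted p = 0.948). FBXO8 fell by 0.26 (limma adjusted p = 0.0302) and FBXW2 rose by 0.20 (0.0406), and both calls were lost without any 1 of 4 and 5 of the 6 arrays (up to 0.143 and 0.213). From the plasmid groups FBXO8 differed by 0.32 in CTRL siRNA cells (limma adjusted p = 0.00149) and by 0.07 in FMR4 siRNA cells (0.536). For FBXW2 the same differences were 0.01 and 0.21. Elongins and the adaptors of CUL2 and CUL5 had 3 of 35 past the test (8.57%), all higher. Of the 33 above background 9.09% passed, near the 9.39% of all genes above background. ASB8 rose by 0.44 (SE 0.068, limma adjusted p = 0.000179), SPSB1 by 0.39 (0.0161) and CISH, a feedback inhibitor of cytokine receptors, by 0.22 (0.0436). From the plasmid groups ASB8 differed by -0.27 in CTRL siRNA cells (limma adjusted p = 0.00646) and by 0.17 in FMR4 siRNA cells (0.0651). SPSB1 and CISH differed by -0.01 and -0.02 in CTRL siRNA cells and by 0.38 and 0.20 in FMR4 siRNA cells. In CTRL siRNA cells SPSB1 (7.72 to 7.85) and CISH (7.63 to 7.78) lay at the background level, so that their folds are uncertain. The calls of SPSB1 and CISH were each lost without any 1 of 4 arrays (up to 0.0852 and 0.196), and that of CISH also with quantile normalisation (0.0654) or median centring (0.0653).

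Neddylation and deneddylation attach and remove NEDD8 and so switch cullins on and off. Of their list, 1 of 24 measured genes passed (4.17%, beside 5.88% of all genes). This was CACUL1, a cullin-domain protein rather than a NEDD8 enzyme, which rose by 0.27 (SE 0.054, limma adjusted p = 0.00297). Of 7 other cullin-fold and RING subunits, ARIH2, a partner of neddylated CUL5, rose by 0.20 (limma adjusted p = 0.0315), a call lost without any 1 of 4 arrays (up to 0.248). The substrates described for SPOP had 2 of 31 measured genes past the test (6.45%), with a median of 0.04. Of the 26 above background 7.69% passed, under the 9.39% of all genes above background. ATF2, a stress-activated transcription factor, rose by 0.37 (SE 0.053, limma adjusted p = 6.54e-05), and CCNE1, cyclin E, fell by 0.24 (SE 0.058, limma adjusted p = 0.0121), a call lost without any 1 of 3 arrays (up to 0.0707). Against the plasmid groups CTRL siRNA cells were 0.30 lower for ATF2 (limma adjusted p = 0.000201) and 0.30 higher for CCNE1 (0.000638), while FMR4 siRNA cells were within 0.07 of them for both. These are RNA levels, and a substrate of SPOP is degraded as protein, which was not measured.

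NFE2L2 and its target genes, the readout of the KEAP1 ligase, had 2 of 27 past the test (7.41%), both lower, with a median of 0. Of the 20 above background 10% passed, near the 9.39% of all genes above background. GCLM, a subunit of the rate-limiting enzyme of glutathione synthesis, fell by 0.49 (SE 0.099, limma adjusted p = 0.00259) and NQO1, a quinone reductase, by 0.45 (SE 0.123, limma adjusted p = 0.0322). The call of NQO1 was lost without any 1 of 5 of the 6 arrays (up to 0.151). At 6 h 0 of the 246 listed genes passed in limma with FMR4 siRNA, and 8 had an unadjusted p under 0.05. With FMR4 pcDNA3.1 0 passed in limma at either time, while the genes under an unadjusted p of 0.05 numbered 3 at 6 h and 7 at 24 h.

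**Figure D4:**
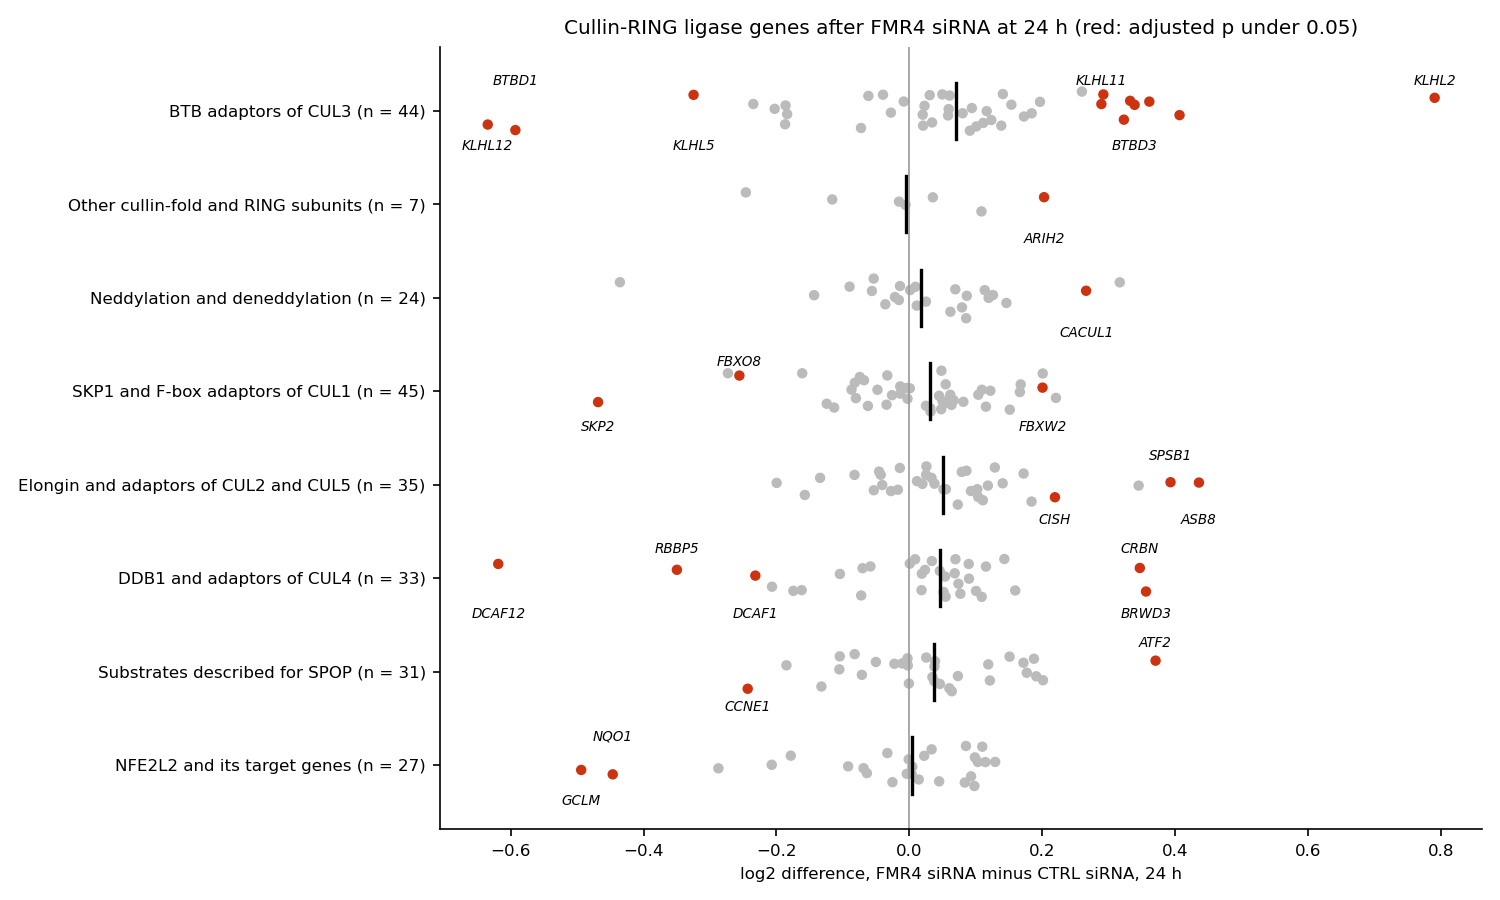
Log2 difference of FMR4 siRNA minus CTRL siRNA at 24 h (horizontal axis) for the measured genes of the 8 lists (rows); points are genes, red past the test, and black bars are list medians. The BTB adaptors of CUL3 hold 11 red points of 44, on both sides of 0, and every median lies between -0.01 and 0.07.

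With time after transfection 69 of the 246 listed genes passed in CTRL siRNA cells, 68 in FMR4 siRNA cells and 63 in the plasmid groups. Of all genes 18.5%, 16.7% and 18.2% passed. In CTRL siRNA cells the lists differed, from 11.5% of the SPOP substrates above background to 48.8% of the BTB adaptors above background. Of the 41 BTB adaptors above background, 20 passed in CTRL siRNA cells (48.8%), 14 in FMR4 siRNA cells (34.1%) and 16 in the plasmid groups (39%), where 27.4%, 25.2% and 24.2% of the genes above background passed. Over all 44 the counts were 21, 14 and 18, and the first was 11 without CTRL siRNA 6 h replicate 1 and 10 without CTRL siRNA 6 h replicate 3, where the calls over all genes went from 3416 to 2371 and 1853. KLHL24 rose in all 3, by 0.51, 0.78 and 0.45 (limma adjusted p = 0.000741, 1.49e-05 and 5.58e-05). KLHL2 fell by 0.82 in CTRL siRNA cells (SE 0.115, limma adjusted p = 6.6e-05) and was 0.16 lower in FMR4 siRNA cells (0.368). The fall ended under background, at 6.98 to 7.43 log2 units in CTRL siRNA cells at 24 h, so that its size is uncertain. CAND1, which exchanges the adaptors of cullins, fell in CTRL siRNA cells by 0.24 (limma adjusted p = 0.00521) and in FMR4 siRNA cells by 0.18 (0.0298), where the call was lost without any 1 of 3 arrays (up to 0.131).

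Among the CUL4 adaptors DDB2, a damage sensor for ultraviolet lesions, rose by 1.01 with time in the plasmid groups (SE 0.06, 2.01-fold, limma adjusted p = 3.94e-10). FBXL20, an F-box protein, rose in all 3, by 0.42, 0.50 and 0.34 (limma adjusted p = 1e-04, 1.83e-05 and 9.82e-06). SENP7, listed as a SPOP substrate, rose in all 3 by 0.44, 0.51 and 0.39 (0.00162, 0.000451 and 0.000131). HMOX1, heme oxygenase and a target of NFE2L2, fell in all 3, by 0.83, 1.16 and 0.48 (0.000364, 1.57e-05 and 0.00161), whereas SLC7A11, the cystine transporter, rose by 1.18 in CTRL siRNA cells and 0.96 in FMR4 siRNA cells (7.58e-05 and 0.000527). The NFE2L2 list thus held genes that moved in opposite directions, and KEAP1 itself passed in none of the 3.

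The genes whose pattern over the 8 conditions lay closest to that of SPOPL were none of its partners. By root mean square difference of the condition means, each centred on the mean of the 8, the closest were SCAMP1 (0.11), LSM14A (0.125), GOLGA4 (0.126), TLN1 (0.134) and TNRC6A (0.136). SCAMP1 is a secretory carrier membrane protein, LSM14A a processing-body component, GOLGA4 a golgin of the trans-Golgi, TLN1 the integrin activator talin and TNRC6A a scaffold of microRNA silencing. All 5 were lowest in CTRL siRNA at 24 h and highest in FMR4 siRNA at 24 h: TNRC6A went from 10.29 ± 0.06 to 11.01 ± 0.05 and TLN1 from 9.46 ± 0.05 to 10.42 ± 0.07 (SD, n = 3). The other 9 members lay 0.297 (CUL1) to 0.372 (CUL2) from SPOPL, where the median of all genes was 0.319 and a gene with equal means would lie at 0.307. The siRNA values that chose SPOPL also set this order, so it is a description.

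**Figure D5:**
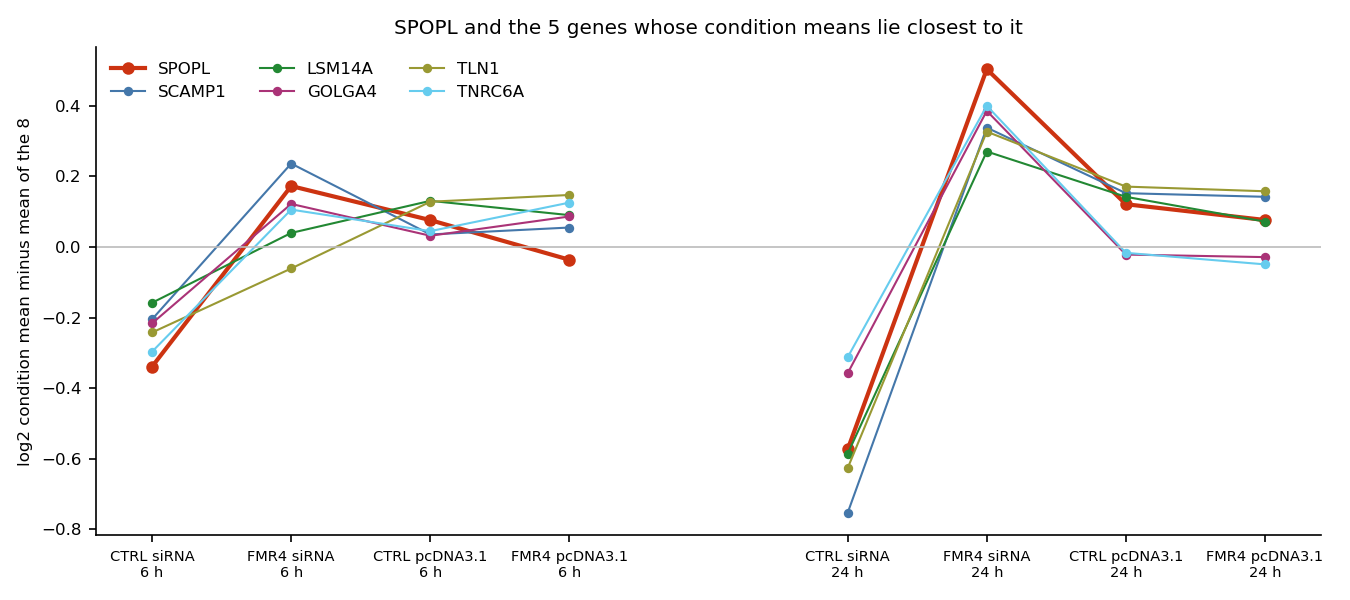
Log2 condition means minus the mean of the 8 conditions (vertical axis) for SPOPL and the 5 genes closest to it, in the 4 treatments at 6 h (left) and 24 h (right); each point is a mean of 3 arrays. All 6 genes lie lowest in CTRL siRNA at 24 h and highest in FMR4 siRNA at 24 h, with the plasmid groups between.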

How the data were processed

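Values for 24 Affymetrix Human Gene ST arrays were used as deposited. The authors subtracted background and normalised with GC-RMA, so the deposited values are log2 expression per probe set; the version of GC-RMA and the genome build are not given in the sources used here. Gene symbols came from the platform annotation: of 33297 probe sets, 21214 had a gene and entered the fit, and 18417 genes with 1 symbol were counted by their brightest probe set. One mean per condition was fitted to all 24 arrays in limma 3.58.1 (R 4.3.3; 16 residual degrees of freedom), with two-sided moderated tests and Benjamini-Hochberg adjustment within each of 12 comparisons, at a threshold of 0.05. The number of arrays limits the precision. The fit was also run on simulated data with independent normal noise for each gene. No simulated array stood apart, so that run does not check the calls against such arrays. The submitters' design text calls the arrays of a condition biological replicates; how far their cultures were separate is not stated, so p-values measure the spread between arrays, which may be partly technical.

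The members and the gene lists were chosen with earlier results of these data known. All 10 members were named in every comparison; of each list, the 3 rises and 3 falls of lowest p past the threshold were named for FMR4 siRNA at 24 h, and up to 1 of each elsewhere. For SPOPL the 5 genes of closest condition means were named. Other settings tried were fitting 6 h or 24 h arrays alone, median centring, quantile normalisation, averaging the probe sets of a gene, dropping dim probe sets, weighting the arrays, trended and robust moderation, blocking on the replicate number and omitting each array.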

Additional observations from a re-analysis of the deposited data

Results flagged for a closer look

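By the limma test of the difference, the FMR4 siRNA effect differed between 24 h and 6 h for 5 of 246 listed genes. That test was passed by 1.18% of all genes and by 1.93% of the genes above background, so the count itself is near that share. KLHL2 differed by 0.66 log2 units (limma adjusted p = 0.0464), from 0.13 at 6 h to 0.79 at 24 h. Its CTRL siRNA levels at 24 h lay under background, so that this size is uncertain. BTBD1 differed by -0.55 (limma adjusted p = 0.000335), from -0.04 to -0.59. SKP2 differed by -0.41 (limma adjusted p = 0.00292), from -0.05 to -0.47. CRBN differed by 0.43 (limma adjusted p = 0.0255), from -0.08 to 0.35. DCAF12 differed by -0.41 (limma adjusted p = 0.0172), from -0.21 to -0.62. The calls of KLHL2, CRBN and DCAF12 were lost without any 1 of 8, 5 and 2 of the 12 siRNA arrays (adjusted p up to 0.153, 0.0801 and 0.0538), and those of BTBD1 and SKP2 held under every alternative run.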

How the results depend on the processing

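None of the 138 values past the test changed sign under the alternatives run. Passing already required a distance from 0, so a change of sign was unlikely and its absence shows little. Of 127 values that did not pass, 30 changed sign, each of 0.07 log2 units or less in size. Counts of members past the test, which leave out SPOPL wherever siRNA arrays enter, moved with the setting from small numbers. Fitting only the arrays of the time gave 0 for FMR4 siRNA minus CTRL siRNA at 24 h (1 as reported) and 0 for the siRNA minus plasmid groups at 6 h (2 as reported), where array weights gave 4. CTRL siRNA minus plasmid groups at 24 h gave 1 with array weights or median centring (0 as reported). FMR4 siRNA minus plasmid groups at 24 h gave 2 with array weights, median centring, quantile normalisation, dim probe sets removed or trended and robust moderation (1 as reported), and 24 h minus 6 h in FMR4 siRNA cells gave 2 with quantile normalisation (1 as reported). Omission of single arrays gave 0 to 1 members for FMR4 siRNA minus CTRL siRNA at 24 h, 0 to 3 for siRNA minus plasmid groups at 6 h, 0 to 2 for 24 h minus 6 h in FMR4 siRNA cells and 1 to 4 in the plasmid groups. It left 1 for 24 h minus 6 h in CTRL siRNA cells, 1 for FMR4 siRNA minus plasmid groups at 24 h and 0 in the 6 other comparisons. Over all genes, FMR4 siRNA minus CTRL siRNA at 24 h called 1083, against 1656 with array weights and 653 without CTRL siRNA 24 h replicate 2. At 6 h it called 11, against 114 with array weights and 855 without FMR4 siRNA 6 h replicate 3, and the difference between both times called 218, against 984 and 1532. For 24 h minus 6 h in CTRL siRNA cells the 3416 calls became 5134 with array weights and 1853 without CTRL siRNA 6 h replicate 3, and in FMR4 siRNA cells the 3068 became 1841 without FMR4 siRNA 24 h replicate 2. The cause was not tested.

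With the replicate number as a block, 24 h minus 6 h gave 0 members in FMR4 siRNA cells (1 without it), where RBX1 had a limma adjusted p of 0.0913. It gave 1 in the plasmid groups (4 without it), where CUL1, CUL4A and CUL5 had 0.1, 0.108 and 0.0855. Whether the numbers pair the 6 h arrays with the 24 h arrays was not checked. Between FMR4 and control arrays of the same time, same-numbered deviations correlated at over 0.1 for every number in 0 of 4 comparisons. Of the members SPOPL lay nearest to background, though above it, and 3 arrays a group limit the precision of each value.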
